A study of Homo sapiens with 4 samples.

Results

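The transcription factors SNAI1, SNAI2, TWIST1, TWIST2, ZEB1 and ZEB2, the intermediate filament VIM and the cadherins CDH1, CDH2 and CDH11 were examined in MDA-MB-231 cells after depletion of AXL. These 10 genes were taken by symbol from the 63677 genes of the deposited table, and each had a single row there. Of the 10, 8 had enough reads to be tested between the groups, while TWIST1 and TWIST2 had no read in any library. Rows were matched by gene symbol alone, but the set of genes was chosen with earlier results of these data known.

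Epithelial-to-mesenchymal transition (EMT) is the programme by which epithelial cells loosen their junctions and take on a motile, fibroblast-like shape. The SNAI and ZEB zinc finger factors and the TWIST basic helix-loop-helix (bHLH) factors bind E-box sequences and repress CDH1, the gene of E-cadherin. Loss of E-cadherin with gain of the mesenchymal cadherins CDH2 and CDH11 is called the cadherin switch, and vimentin, encoded by VIM, is a filament protein widely used as a mesenchymal marker.

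MDA-MB-231 is an established human triple-negative breast cancer (TNBC) cell line of mesenchymal character, and AXL is a receptor tyrosine kinase linked to migration and EMT. The cells received a control siRNA (siCt, 2 libraries) or an siRNA pool against AXL (siAXL, 2 libraries), delivered by lipid transfection, with no other treatment in the labels. The labels name no drug, time after transfection or passage, and the study's methods describe a luciferase-tagged derivative of the line for culture, so that the exact sub-line sequenced is not clear. All libraries thus come from 1 cell line, and both siAXL libraries from 1 siRNA pool against AXL. Nothing in the labels says that the 2 libraries of a group came from separate cultures, and p-values then measure only the spread between these samples, which may be technical. Since RNA was taken from bulk cells, fewer cells expressing a gene and less RNA per cell cannot be told apart.

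The 4 libraries held 39574387 to 44585773 reads assigned to genes. AXL fell from 29189 and 30617 normalized counts (reads divided by a size factor of the library) in siCt 1 and siCt 2 to 8658 and 7141 in siAXL 1 and siAXL 2, a log2 fold change of -1.93 (SE, the standard error, 0.0918, limma adjusted p = 0.000585). Both siAXL libraries lay far below both siCt libraries. Among the cell line markers, CD44 lay between 33968 and 36518 normalized counts, whereas the hormone receptors ESR1 and PGR did not exceed 3.3. ERBB2 was between 2949 and 3680 and EPCAM between 565 and 771, both well above the hormone receptors. Of 16064 genes tested, 3006 (18.7%) passed an adjusted p of 0.05 in limma and are named called below, 1735 higher (10.8%) and 1271 lower (7.91%) in siAXL. Without siAXL 1 the number called was 1301, and without siAXL 2 it was 1518. When values were scaled by library size alone, 46.8% of called genes were higher in siAXL, against 57.7% with the size factors of the deposited values.

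Of the 8 genes tested, ZEB2 and CDH11 rose and CDH1 and CDH2 fell in AXL-depleted cells, while ZEB1, VIM, SNAI1 and SNAI2 did not pass the threshold. The 4 calls stand beside the 18.7% of all genes called, and the 2 in each direction beside 10.8% called higher and 7.91% called lower. The libraries of the groups did not overlap for 7 of the 8, with 4 higher and 3 lower in siAXL. Such separation was common, since 30.6% of all genes tested were higher without overlap and 30.5% lower. The median log2 fold change of the 8 was 0.049, against -0.0022 over all genes tested.

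**Figure D1:**
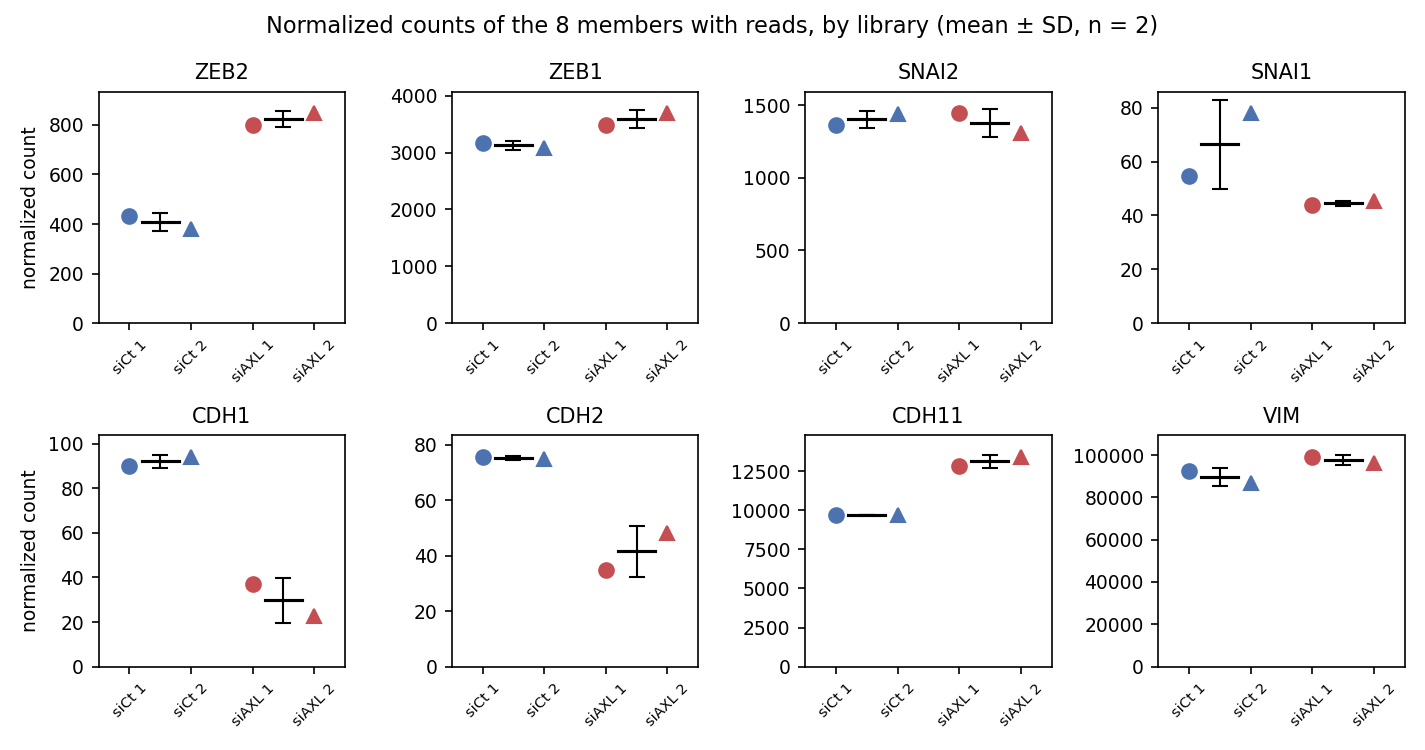
Normalized counts (y axis, linear from 0) of the 8 genes with reads in siCt 1, siCt 2, siAXL 1 and siAXL 2 (x axis), with the mean and SD of the 2 libraries of each group as black bars. ZEB2 and CDH11 sit higher in both siAXL libraries, CDH1 and CDH2 sit lower, and the SNAI2 values of the groups overlap.

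ZEB2, a zinc finger homeobox repressor of epithelial genes, had the largest log2 fold change above 0 of the 8. The gene lies on chromosome 2 (144364364 to 144524583 on the minus strand of GRCh38, ENSG00000169554). Its normalized counts were 434 and 381 in the control libraries and 801 and 848 after AXL depletion. Both siAXL libraries were well above both siCt libraries, with no overlap. The mean went from 408 ± 37.5 to 825 ± 33.0 (SD, n = 2 each). This was a log2 fold change of 1.02 (SE 0.0956, 95% interval 0.79 to 1.24, limma adjusted p = 0.0021), or 2.02-fold. Of all genes tested, 165 had a larger rise. The call held without each library in turn, with log2 fold changes of 0.92 to 1.11.

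ZEB1, the paralog of ZEB2 with the same arrangement of zinc finger clusters, is encoded on chromosome 10. It gave 3178 and 3075 normalized counts in siCt and 3479 and 3697 in siAXL. The siAXL libraries were slightly higher and did not overlap the siCt libraries. The log2 fold change of 0.20 (SE 0.0597, 95% interval 0.06 to 0.34) did not pass the threshold in limma (adjusted p = 0.0602). edgeR on the recovered reads called it (adjusted p = 0.0414) and DESeq2 did not (adjusted p = 0.0767), and over 7 alternative settings of scaling, filter, pseudocount and test the adjusted p ran from 0.0414 to 0.127. Whether ZEB1 and ZEB2 differed in their change was not tested.

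SNAI1 (Snail), an EMT repressor encoded on chromosome 20, was represented by few reads. The reads were 57 and 72 in siCt and 45 and 46 in siAXL, or 54.7, 78.0, 43.7 and 45.2 normalized counts. As a share of the library, siCt 1 gave 1.29 CPM (counts scaled to a fixed library total), with an exact Clopper-Pearson 95% interval of 0.975 to 1.67, and siAXL 1 gave 1.01 CPM (0.736 to 1.35). The siCt libraries were higher without overlap, but siCt 1 lay within the counting interval of siAXL 1. The log2 fold change of -0.55 (SE 0.228, 95% interval -1.08 to -0.01) did not pass the threshold (limma adjusted p = 0.142). Without siCt 1 it was -0.80 and called (limma adjusted p = 0.0324), whereas over the 4 omissions of a library it ran from -0.80 to -0.29 with adjusted p from 0.0324 to 0.584. Such intervals of CPM cover counting error only.

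SNAI2 (Slug), the other Snail factor of the group, had normalized counts of 1362 and 1440 in siCt and 1445 and 1307 in siAXL. The highest and the lowest library were both siAXL, so the groups overlapped. The log2 fold change was -0.03 (SE 0.0761, 95% interval -0.21 to 0.15, limma adjusted p = 0.841). Without siCt 2 the estimate was 0.01 and without siAXL 2 it was 0.05, so its sign was not stable.

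TWIST1 and TWIST2, bHLH factors of mesoderm and neural crest, had 0 reads in each of the 4 libraries. A count of 0 allows up to 3 reads, which corresponds to 0.0677 and 0.0758 CPM in the siCt libraries and to 0.0673 in both siAXL libraries. No change could be computed for either gene, and expression below these limits was not detectable at this depth.

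CDH1, the E-cadherin gene and a classical target of these repressors, was low in control cells and lower still after AXL depletion. It lies on chromosome 16 (68737225 to 68835548 on the plus strand of GRCh38, ENSG00000039068). Reads numbered 94 and 87 in siCt and 38 and 23 in siAXL. In CPM, siCt 1 was at 2.12 (exact Clopper-Pearson 95% interval 1.72 to 2.6), siCt 2 at 2.2 (1.76 to 2.71), siAXL 1 at 0.852 (0.603 to 1.17) and siAXL 2 at 0.516 (0.327 to 0.774). Each siAXL interval lay below both siCt intervals. Normalized counts were 90.1 and 94.3 in siCt and 36.9 and 22.6 in siAXL, with means of 92.2 ± 2.92 and 29.8 ± 10.1 (SD, n = 2 each). The log2 fold change was -1.64 (SE 0.261, 95% interval -2.25 to -1.02, limma adjusted p = 0.00847), and 19 of all genes tested fell further. The call held without each library in turn, with values of -1.98 to -1.30, and in the 7 alternative settings with adjusted p from 0.000572 to 0.0492.

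CDH2 (N-cadherin), the cadherin of neural and mesenchymal cells, fell as well. The gene is on chromosome 18 (27950966 to 28177446 on the minus strand of GRCh38, ENSG00000170558). It had 79 and 69 reads in siCt and 36 and 49 in siAXL, which gave 75.8, 74.8, 35.0 and 48.1 normalized counts. The siAXL libraries were lower without overlap, although siAXL 2 was less reduced than siAXL 1. The means were 75.3 ± 0.700 and 41.6 ± 9.32 (SD, n = 2 each), a log2 fold change of -0.86 (SE 0.218, 95% interval -1.37 to -0.35, limma adjusted p = 0.0357). This call rested on siAXL 1, since without it the value was -0.63 (limma adjusted p = 0.159). It was not made by DESeq2 (adjusted p = 0.0934) or with no filter on low counts (limma adjusted p = 0.104), while edgeR made it (adjusted p = 0.0374). Over the 7 alternative settings the adjusted p ran from 0.0324 to 0.104.

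CDH11 (OB-cadherin), a cadherin of osteoblasts and fibroblasts, rose. It lies on chromosome 16 (64943753 to 65126112 on the minus strand of GRCh38, ENSG00000140937). Its normalized counts were 9727 and 9712 in siCt and 12832 and 13439 in siAXL. The siCt libraries were nearly equal, and both siAXL libraries lay above them. The mean moved from 9719 ± 10.9 to 13136 ± 429 (SD, n = 2 each), a log2 fold change of 0.43 (SE 0.054, 95% interval 0.31 to 0.56, limma adjusted p = 0.00393), or 1.35-fold. Leaving out each library in turn gave 0.40 to 0.47, and the call held in each case.

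VIM gave 92547 and 86751 normalized counts in siCt and 99296 and 96112 in siAXL. The siAXL libraries were higher without overlap, but siCt 1 was nearer to siAXL 2 than to siCt 2. The log2 fold change of 0.12 (SE 0.0682, 95% interval -0.04 to 0.29) did not pass the threshold (limma adjusted p = 0.248).

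**Figure D2:**
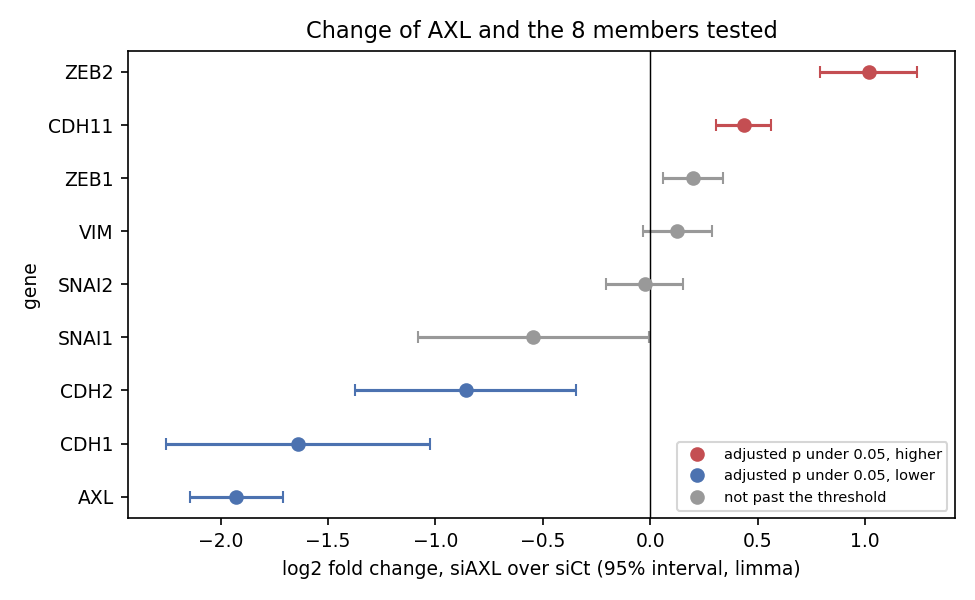
Log2 fold change of siAXL over siCt (x axis) for AXL and the 8 genes tested (y axis), with 95% intervals from limma and calls in color. ZEB2 at 1.02 and CDH11 at 0.43 lie above 0, CDH1 at -1.64 and CDH2 at -0.86 lie below, and the intervals of SNAI2 and VIM include 0.

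ZEB2, CDH11 and CDH1 were called in all 4 omissions of a library and in all 7 alternative settings. CDH2 was called in 3 of the 4 omissions and 5 of the 7 settings. ZEB1 was called in 2 of the 7 settings, which were edgeR and TMM scaling, and in no omission (limma adjusted p from 0.058 to 0.292). VIM and SNAI2 were called in no omission and in none of the 7 settings, with adjusted p of 0.158 or more in the settings.

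**Figure D3:**
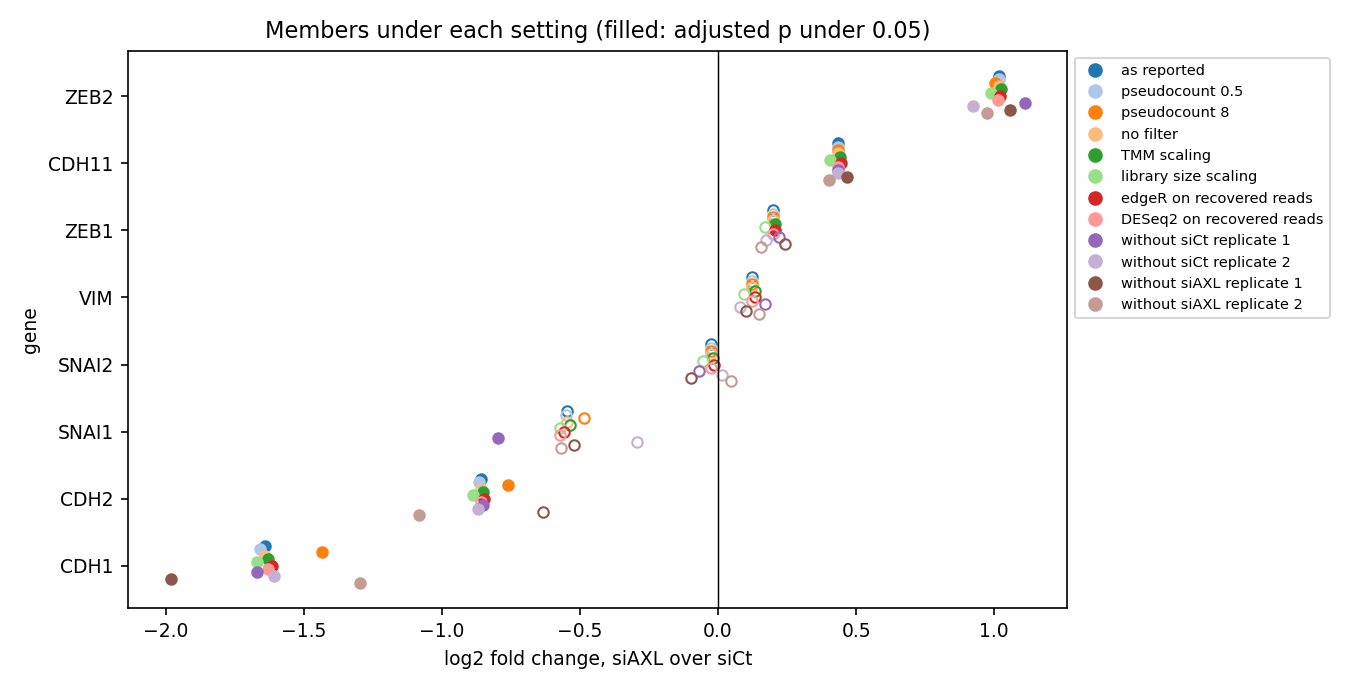
Log2 fold change of siAXL over siCt (x axis) of the 8 genes tested (y axis) as reported, under each alternative of scaling, filter, pseudocount and test, and without each library, with filled points at an adjusted p under 0.05. ZEB2, CDH11 and CDH1 are filled throughout, and CDH2 without siAXL 1 lies at -0.63 with an open point.

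Levels were compared between genes as RPKM, in which reads are scaled to transcript length and library size. It was computed from the recovered reads over the longest coding transcript with an annotated end. VIM averaged 1160 RPKM over the 4 libraries (1080 to 1230), rank 23 of the 13017 genes tested that had such a length. CDH11 followed with 38.5 RPKM (32.9 to 44.7) and was above 85.7% of these genes. SNAI2 at 13.3 RPKM (12.3 to 13.8) and ZEB1 at 12.4 (11.4 to 13.5) had overlapping ranges and cannot be ordered. ZEB2 at 1.49 RPKM (0.928 to 2.02) and SNAI1 at 0.763 (0.599 to 1.08) overlapped too, and over the union of all exons ZEB2 came to 0.569 RPKM, below SNAI1 at 0.763. CDH2 at 0.314 RPKM (0.186 to 0.412) and CDH1 at 0.291 (0.106 to 0.45) were not separable and lay above 8.37% and 7.94% of these genes. The 4 calls thus fell on 1 abundant RNA, CDH11, and on 3 of low level, ZEB2, CDH2 and CDH1.

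The balance between pairs of these genes was taken within each library on the log2 scale of normalized counts, as a description, and was not tested. CDH2 minus CDH1 was -0.25 and -0.33 in siCt and -0.08 and 1.06 in siAXL. The mean shift of 0.78 rested on siAXL 2, without which it was 0.21 and without siAXL 1 1.35. CDH11 minus CDH1 was 6.74 and 6.67 in siCt and 8.40 and 9.15 in siAXL, a mean shift of 2.07 that stayed at 1.70 or more without any 1 library. VIM minus the sum of the simple epithelial keratins KRT8 and KRT18 was 1.62 and 1.40 in siCt and 1.95 and 1.84 in siAXL, a mean shift of 0.38.

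Sequences are shown for the 3′ untranslated regions (UTRs) that hold a short word which, in earlier work on these data, marked genes of higher value in siAXL. The 7-base word CACATCA and its last 6 bases (ACATCA) were searched on the sense strand of the 3′ UTR. For each gene the longest 3′ UTR among its coding transcripts with an annotated end was used. Every CACATCA also counts as an ACATCA. The sites of the 4 genes that hold either word are given in 30 bases each, 5′ to 3′ in the sense of the gene, with the word in capitals and positions on GRCh38 from GENCODE.
ZEB2 site 1, chr2:144389045-144389074 (-): cgcactaccatACATCAgtatttttattat
ZEB2 site 2, chr2:144386217-144386246 (-): gcattttagtaACATCAgatgtgttcttct
ZEB2 site 3, chr2:144385155-144385184 (-): ctagacaccttACATCAagggacactggtc
ZEB2 site 4, chr2:144384983-144385012 (-): tatatgtgaaCACATCAcaaatcatattgg
CDH11 site 1, chr16:64948000-64948029 (-): tgtccgtgagaACATCAttacttatgatga
CDH11 site 2, chr16:64947892-64947921 (-): cccccgcaaagACATCAaacctgagtatca
CDH11 site 3, chr16:64947433-64947462 (-): aaactgcgaggACATCAaagtggtaaatac
CDH11 site 4, chr16:64946577-64946606 (-): aagattctgtaACATCAtgtaaagcttttt
ZEB1 site 1, chr10:31529123-31529152 (+): agttccttgttACATCAtggtcattttcta
SNAI1 site 1, chr20:49988172-49988201 (+): cacttctggcCACATCAgccccacaggact

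ZEB2 held 1 CACATCA and 4 ACATCA in all in 5370 bases of 3′ UTR. CDH11 had no CACATCA and 4 ACATCA in 4338 bases, and ZEB1 had 1 ACATCA in 2549 bases. SNAI1, whose log2 fold change was -0.55 without passing the threshold, held 1 CACATCA in 830 bases. The 3′ UTRs of SNAI2, TWIST1, TWIST2, VIM, CDH1 and CDH2 had neither word. Of the 12985 genes tested with a 3′ UTR, the 1506 with CACATCA (11.6%) had a median log2 fold change of 0.102, with 26.6% called higher and 5.84% called lower. Those with ACATCA alone (2708 genes, 20.9%) had a median of 0.017, and 14% were called higher and 8.6% lower. The 8771 genes with neither had a median of -0.016, with 10.1% called higher and 10.2% lower. The word was chosen with results of these same libraries known, so this shift is not independent evidence for it. Longer 3′ UTRs have more room for a word, and the part of the word or of UTR length in the values of ZEB2 and CDH11 was not tested.

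**Figure D4:**
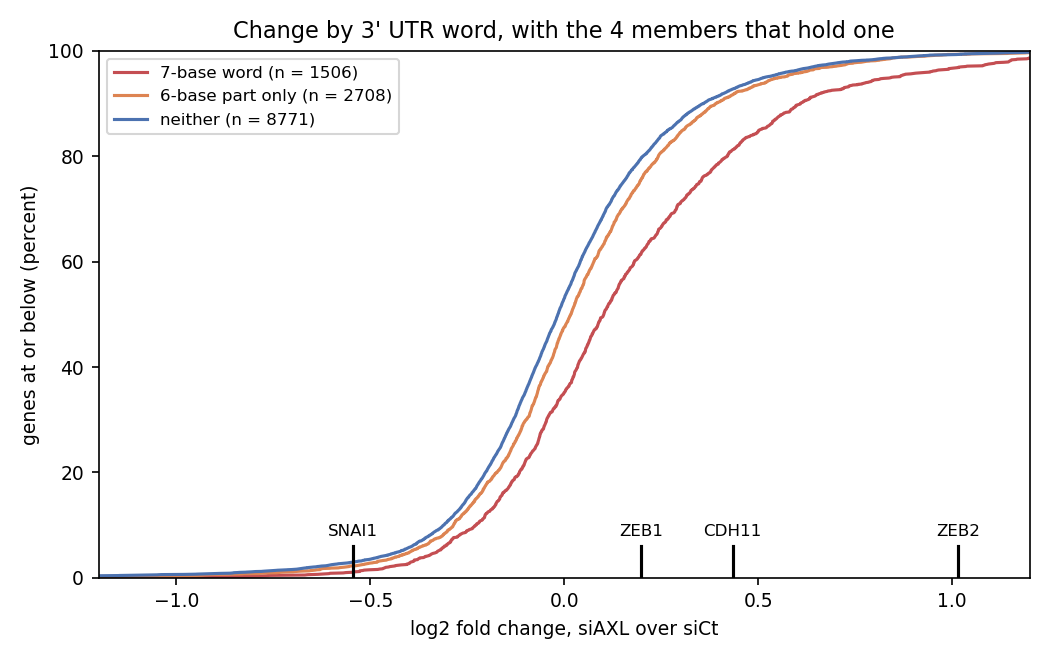
Cumulative share of genes (y axis, percent) by log2 fold change of siAXL over siCt (x axis) for genes whose 3′ UTR holds CACATCA or ACATCA alone or neither, with ticks at ZEB2, CDH11, ZEB1 and SNAI1. The curve of the 1506 CACATCA genes lies to the right of the others, with a median of 0.102 against -0.016 for genes with neither word. The word was chosen with results of these same data known.

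E-box words, to which these factors bind, were searched in the 250 bases before the annotated start. This covered 5 of the genes (ZEB1, ZEB2, CDH2, VIM and TWIST2), in 12 windows of RefSeq on GRCh38.p14. CDH1, CDH11, SNAI1, SNAI2 and TWIST1 were not covered, so nothing is said of their promoters. The words were CAGGTG or CACCTG, the form preferred by SNAI and ZEB factors, and the wider CANNTG, which includes the former. Each set equals its own reverse complement, so both strands were covered. CAGGTG or CACCTG stood in 17.5% of all 35116 windows of this length and CANNTG in 61.8%. ZEB1 held CAGGTG or CACCTG in 2 of its 7 windows. ZEB2 had 1 CANNTG at 180 bases before its start, CDH2 had 1 at 97 bases before the start in 1 of its 2 windows, and VIM and TWIST2 had neither. The farthest upstream ZEB1 window, chr10:31318167-31318416 on the plus strand, is shown for its CAGGTG at 57 bases before the start, with CANNTG words in capitals.
ZEB1: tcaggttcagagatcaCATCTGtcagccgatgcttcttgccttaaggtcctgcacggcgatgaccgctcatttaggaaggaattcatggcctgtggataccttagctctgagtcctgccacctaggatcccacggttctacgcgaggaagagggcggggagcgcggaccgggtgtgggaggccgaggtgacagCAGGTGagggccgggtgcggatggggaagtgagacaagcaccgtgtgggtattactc
The antisense gene ZEB1-AS1 shares 366 bases of exon with ZEB1, and whether its exons reach this window was not tested. A match describes the letters only.

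Around these genes, 11 lists of related genes were followed, 190 genes in all, of which 147 were tested and 50 called, beside 18.7% of all genes tested. Without siAXL 1 the number called was 25, and without siAXL 2 it was 32. For each list the called genes with the smallest adjusted p are named, and 22 of the 38 so named were still called without each library in turn.

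Among other transcription factors that promote EMT, 13 of 20 were tested, 4 rose and 2 fell, with a median log2 fold change of 0.050. PRRX1, a homeobox factor of mesenchyme, had normalized counts of 64.2 and 62.8 in siCt and 197 and 146 in siAXL, and rose by 1.41 on the log2 scale (SE 0.183, limma adjusted p = 0.00449). SOX4, an HMG-box factor, rose by 0.57 (limma adjusted p = 0.00555), and ETS1, the founding ETS factor, by 0.46 (limma adjusted p = 0.00411). FOXQ1, a forkhead factor, fell by 0.70 (limma adjusted p = 0.00184), and RUNX2, the osteoblast factor, fell by 0.42 (limma adjusted p = 0.00622). All 5 were called without each library in turn.

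TWIST proteins pair with the bHLH E proteins, which ID proteins hold off DNA, and the 7 genes of this group were all tested. TCF3, an E protein, rose by 0.19 (limma adjusted p = 0.0455), a call that was lost without each library in turn, with no filter, with library size scaling and under DESeq2. TCF12, another E protein, had a log2 fold change of 0.19 without passing the threshold (limma adjusted p = 0.0677). TCF4 stood at 24.6 to 46.6 normalized counts, with a log2 fold change of -0.30 (limma adjusted p = 0.577). The ID genes had log2 fold changes of -0.09 (ID1), 0.03 (ID2), -0.08 (ID3) and 0.01 (ID4), each with a limma adjusted p of 0.69 or more.

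Corepressors through which SNAI and ZEB factors silence their targets numbered 18, all tested, of which 3 rose and 6 fell (median -0.035). RCOR1, the CoREST scaffold, rose by 0.73 (SE 0.0746, limma adjusted p = 0.00245). CTBP2, a partner of ZEB factors, rose by 0.43 (limma adjusted p = 0.00801), and LOXL2, a lysyl oxidase that binds Snail, by 0.36 (limma adjusted p = 0.0133). The Polycomb genes EZH2 and EED fell by 0.33 and 0.32 (limma adjusted p = 0.0166 and 0.016), and AJUBA, a LIM adaptor of Snail, fell by 0.29 (limma adjusted p = 0.0175). Without siAXL 1 the number called was 3 and without siAXL 2 it was 4, and LOXL2, EZH2, EED and AJUBA each lost the call in one or both of these. CTBP2 shares exon sequence with ZRANB1 on the opposite strand and LOXL2 with ENTPD4 on the same strand, so their counts are uncertain. With no filter the calls of LOXL2, EZH2 and AJUBA were lost.

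SNAI and TWIST proteins are short-lived, and 16 regulators of their stability were tested. Of these, 2 were called (12.5%, beside 18.7% of all genes tested), both higher (median 0.031). CTDSP1, a phosphatase that stabilizes Snail, rose by 0.43 (limma adjusted p = 0.00939), and LATS2, a Hippo kinase that phosphorylates Snail, by 0.41 (limma adjusted p = 0.00824). Without siCt 1 the number called was 4.

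Factors that hold the epithelial state numbered 16, of which 10 were tested, 1 rose and 2 fell (median -0.13). ELF3, an epithelial ETS factor, was at 781 and 1049 normalized counts in siCt and 323 and 372 in siAXL. Both siAXL libraries were well below the siCt libraries, and the gene fell by 1.38 on the log2 scale (SE 0.148, limma adjusted p = 0.00274). RBM47, an RNA-binding protein of epithelia, fell by 0.44 (limma adjusted p = 0.0201), a call that was lost with no filter. KLF4, a Krüppel-like factor that activates CDH1, rose by 0.34 (limma adjusted p = 0.0121). Without siAXL 1 the number called was 1, which was ELF3. GRHL2, OVOL1, OVOL2, ESRP1 and FOXA1, which guard the epithelial state, were at 6.7 normalized counts or fewer in each library and were not tested. Other factors of the list were expressed without a call. EHF lay at 9738 to 11617 normalized counts, KLF5 at 1476 to 1538, ESRP2 at 447 to 503 and GATA3 at 248 to 303. GRHL1, GRHL3 and TP63, also not called, were at 71.9 or fewer.

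Of 16 other cadherins, 3 had enough reads to be tested (median 0.59). CDH4 (R-cadherin) rose by 0.59 (SE 0.0751, limma adjusted p = 0.00409). CDH3 (P-cadherin) had a log2 fold change of 1.54 at 3.3 to 19.7 normalized counts without passing the threshold (limma adjusted p = 0.0625), and CDH24 one of 0.29 (limma adjusted p = 0.137). Without siCt 1 all 3 were called.

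Catenins link cadherins to actin, and with other partners of the adherens junction 12 of 16 were tested, of which 5 rose and 1 fell (median 0.049). CTNNB1 (beta-catenin) had 26056 and 26343 normalized counts in siCt and 26098 and 26451 in siAXL. Its groups overlapped, and the log2 fold change was 0.0041 (SE 0.0539, limma adjusted p = 0.969). The nectins PVRL1 and PVRL3, adhesion molecules of the same junction, rose by 0.55 and 0.42 (limma adjusted p = 0.00555 and 0.00662). VCL (vinculin) rose by 0.30 (limma adjusted p = 0.0121), and SSX2IP, an afadin-binding protein, fell by 0.23 (limma adjusted p = 0.0427). The call of SSX2IP was lost without each library in turn, with no filter and under DESeq2, and that of VCL without siAXL 1 or siAXL 2. Without siAXL 1, and likewise without siAXL 2, 2 genes were called. VCL shares exon sequence with AP3M1 on the opposite strand.

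Beside VIM, 10 of 16 other intermediate filament genes were tested, of which 1 rose and 3 fell (median -0.15). NES (nestin), which co-assembles with vimentin, rose by 0.87 (SE 0.0666, limma adjusted p = 0.00136). The keratins KRT7 and KRT8 fell by 0.30 and 0.31 (limma adjusted p = 0.0179 and 0.0232), and LMNB1 (lamin B1) by 0.31 (limma adjusted p = 0.0213). KRT8 lost the call without siCt 2, siAXL 1 or siAXL 2, KRT7 without siCt 2 or siAXL 1, and LMNB1 without siAXL 1, and with no filter each of these 3 falls was lost. The number called was 2 without siCt 2 and 1 without siAXL 1, which was NES. KRT8 shares exon sequence with KRT18 on the opposite strand in the annotation used.

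Mesenchymal gene products had 21 of 25 tested, of which 7 rose and 1 fell (median 0.25). LOX, which crosslinks collagen, rose by 0.77 (SE 0.0577, limma adjusted p = 0.00136), TNC (tenascin C) by 0.63 (limma adjusted p = 0.00203) and MMP14, a membrane metalloproteinase, by 0.47 (limma adjusted p = 0.00529). COL1A1, a chain of type I collagen, fell by 0.25 (limma adjusted p = 0.0378), a call that was lost without siCt 2, siAXL 1 or siAXL 2, with no filter and under DESeq2. FN1 (fibronectin), with 66405 to 71453 normalized counts, had a log2 fold change of 0.03 (limma adjusted p = 0.821). Without siAXL 1 the number called was 4. LOX shares exon sequence with SRFBP1 on the opposite strand.

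Epithelial junction genes had 25 of 28 tested, of which 4 were called (16%), all higher (median 0.11). Of all genes tested, 18.7% were called and 10.8% called higher. CXADR, a tight junction receptor, rose by 0.61 (SE 0.0911, limma adjusted p = 0.00696), DSC2 (desmocollin 2) by 0.56 (limma adjusted p = 0.00448) and F11R (JAM-A) by 0.36 (limma adjusted p = 0.0152). Their direction was opposite to that of CDH1. F11R lost the call without siAXL 1 or siAXL 2 and with no filter. The number called was 7 without siCt 2 and 2 without siAXL 1 or siAXL 2.

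TGF-beta is a well studied inducer of SNAI and ZEB factors, and all 12 genes of its list were tested, of which 4 rose and 2 fell (median 0.026). The receptors TGFBR2 and TGFBR1 rose by 0.94 and 0.54 (limma adjusted p = 0.00113 and 0.00223). TGFB1, a ligand, rose by 0.53 (limma adjusted p = 0.0112), while TGFB2, another, fell by 0.32 (limma adjusted p = 0.0226) and SKIL, an inhibitor of SMAD signalling, by 0.27 (limma adjusted p = 0.042). Both falls, of TGFB2 and SKIL, were lost in each of 3 omissions (siCt 2, siAXL 1 and siAXL 2) and with no filter, and that of SKIL also under DESeq2. The number called was 3 without siCt 2, without siAXL 1 or without siAXL 2. TGFB1 averaged 3532 reads and shares exon sequence with the more abundant HNRNPUL1 (16014 reads) on the opposite strand, so its value is uncertain. The call of TGFB1 was also lost with no filter (limma adjusted p = 0.0616).

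**Figure D5:**
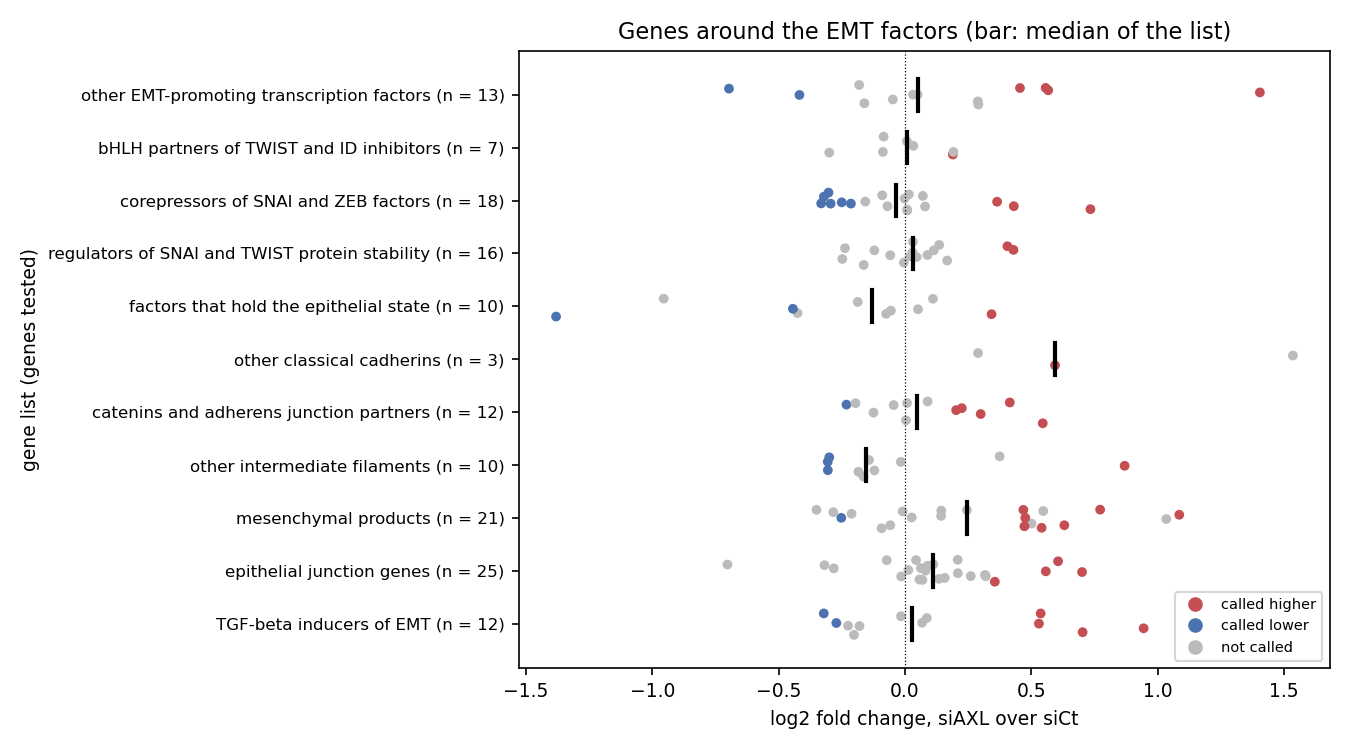
Log2 fold change of siAXL over siCt (x axis) of the tested genes of 11 lists (y axis), each point a gene, colored by call, with a black bar at the median. Medians run from -0.15 (other intermediate filaments) to 0.59 (other cadherins, labelled other classical cadherins, 3 genes). Called genes lie on both sides of 0 in 7 of the lists.

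Antisense genes overlap some of the 10 genes, and the sources used here do not say whether strand was used in counting. VIM-AS1 averaged 412 reads against 94158 for VIM, ZEB1-AS1 262 against 3374 for ZEB1, ZEB2-AS1 1.2 against 623 for ZEB2, and the antisense gene at CDH2 2.5 against 58.2. Those at CDH1 and TWIST1 had none. How shared exons affected the counts of these genes was not tested.

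Markers of other cell types were summed per library, since VIM, CDH11 and ZEB2 are also expressed in stroma or leukocytes. The 5 fibroblast markers summed to 253 and 304 normalized counts in siCt and 379 and 342 in siAXL, of which COL1A2 was the largest part. COL1A2 had 225 and 248 in siCt and 352 and 309 in siAXL, while LUM did not rise (26.8 and 55.3 in siCt, 26.2 and 29.5 in siAXL). DCN, PDGFRA and THY1 did not exceed 2.0 in any library. The 5 leukocyte markers summed to 78.6 and 85.6 in siCt and 110 and 131 in siAXL, mostly CD14, with CD3E at 1.0 or less. The 4 endothelial markers summed to 154 and 169 in siCt and 207 and 172 in siAXL, mostly KDR, with PECAM1 at 0 in all libraries. The 6 luminal epithelial markers summed to 32012 to 33032, mostly KRT19, with overlapping groups. The fibroblast, leukocyte and endothelial sums were higher in both siAXL libraries, but they mostly follow COL1A2, CD14 and KDR. KDR itself overlapped between the groups (140 and 155 in siCt, 179 and 154 in siAXL). A rise of a cell type's markers as a group is thus not shown. The part of other cell types in the values of ZEB2, CDH11 and VIM was not tested.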

How the data were processed

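Total RNA of MDA-MB-231 cells was sequenced on an Illumina HiSeq instrument (2 siCt and 2 siAXL libraries, grouped by their titles). The submitters' processing notes name CASAVA 1.8, TopHat2 2.0.10, HTSeq 0.5.3, DESeq2 1.4.5 and GRCh37. The strand setting and the annotation release are not given in the sources used here. The authors deposited 1 table whose signal is a normalized count, the reads of a gene divided by a per-library size factor from DESeq2. Its columns of the authors' own comparison (a mean, log2 fold change and standard error, a score, p-values) were not used, and per-sample columns not used numbered 0. In each library 100% of deposited values were whole multiples of 1 read (tolerance 0.01 read), so reads were recovered.

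Genes passing edgeR's filterByExpr (16064 of 27108 with a read) were tested with limma 3.58.1 (lmFit, eBayes with an intensity trend) in R 4.3.3 on log2(normalized count + 1), where changes of low genes are understated. The condition was the sole term, with Benjamini-Hochberg adjustment over all genes tested, calls at 0.05, and log2 fold changes as siAXL minus siCt. Alternatives were pseudocounts of 0.5 and 8, no filter, TMM and library size scaling, edgeR 4.0.16 (called 3122 genes) and DESeq2 1.42.0 (called 2759 of 12949 with an adjusted p) on recovered reads, a replicate block, a threshold of 0.01, and leaving out each library. With 1 library left in a group, that library is assumed to vary like the other group.

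Lengths, 3′ UTRs, loci and overlaps came from GENCODE release 29 (GRCh38), matched by Ensembl identifier for 82.5% of genes. That build differs from the authors', and no coordinates were converted. Promoter windows came from RefSeq. Intervals are 95% exact Clopper-Pearson, for counting error only, and a count of 0 was taken to allow 3 reads. Replicate libraries were not copies of the same counts, since they differed beyond sampling noise (chi-square per gene 21.6 in siCt and 19.6 in siAXL). This does not tell technical replicates from separate cultures. The 10 genes, the lists, the 3′ UTR word and the tests were chosen with earlier results of these data known. The text names AXL, the 10 genes, up to 3 called genes per list and direction with the smallest adjusted p, and whole lists of 7 genes or fewer. CDH3, CDH24, CTNNB1, FN1 and the epithelial factors without a call were named after their values were seen.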

Additional observations from a re-analysis of the deposited data

How the results depend on the processing

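Of the 10 genes, ZEB2, CDH11 and CDH1 kept direction and call in every alternative run, CDH2 kept direction but not the call, and SNAI2 changed sign. With all 4 libraries 3006 genes were called, with 1097 called without a filter on low counts, which tests 11044 more genes, and 859 at an adjusted p of 0.01. Leaving out each library in turn gave 1301 to 3900 called genes and 25 to 59 called list genes (50 with all libraries, 27 with no filter). The SNAI2 log2 fold change ran from -0.100 to 0.0455 over these omissions and was 0.0134 without siCt 2. Among omissions the counts were lowest without a siAXL library, and the cause was not tested. The replicate numbers were also used as a block. Same-numbered libraries deviated together with a correlation of 0.271 over only 2 pairs, and no label says what a number marks, so they share only a number. With this block 7310 genes, 7 of the 10 genes (ZEB1, VIM and SNAI1 in addition, limma adjusted p = 0.000138, 0.00043 and 0.0259) and 89 list genes were called. With 2 libraries per group, genes of few reads such as CDH1 (23 reads in the lowest library), CDH2 and SNAI1 are the least precise.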
